A study of Rattus norvegicus with 12 samples.

Results

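Collagen chain genes were followed in LV tissue of rats 1 day after surgery. They were taken from the count table as the protein-coding loci whose symbol is Col, a type number, the letter a and a chain number, which gave 43 of 34599 loci. By the type of assembly that their protein forms, 11 encode chains of fibrillar collagens, 6 chains of the basement membrane collagen type IV, 9 chains of FACIT collagens (fibril-associated collagens with interrupted triple helices), 5 chains of the beaded filament collagen type VI and 12 chains of other collagens. The rule passed over a locus that the table lists as AABR07068316.1 and describes as a collagen type VI chain, because its listed type is processed transcript.

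A collagen molecule is a triple helix of chains, which are hydroxylated and folded in the endoplasmic reticulum, secreted, trimmed by proteinases and cross-linked outside the cell. Fibrillar collagens give the myocardium tensile strength and are made mainly by cardiac fibroblasts, type IV collagen forms the network under endothelial cells and around cardiomyocytes, and FACIT and beaded filament collagens bind to fibrils or link them with cells. After an infarct, collagen replaces lost muscle and becomes the scar over the following weeks.

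Libraries of total RNA from 12 male SD rats were sequenced, with 4 rats each as Sham, as MI and as iCarP+/Light+. Rats bought for the patch experiments were 6 weeks old, and the age of the infarct rats was not given separately in the sources used here. Sham rats underwent thoracotomy without ligation, and MI rats had the left anterior descending coronary artery ligated. iCarP+/Light+ rats, called treated rats where short, had the same ligation, an injection of Chlorella, a unicellular green alga, into the infarcted wall 10 min later, the photonic patch iCarP glued on the epicardium with the adhesive CCS@gel, and light through the patch for 3 h at 55 mW. No library of rats with the patch but without light was analysed here, so effects of light, patch, adhesive and alga cannot be told apart. The labels give the tissue as LV and describe the harvested part as the infarct region, in the same words for Sham rats, and they name no batch.

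Each rat had 14064400 to 17137000 reads counted on genes (rounded to 6 digits), of which the collagen chain genes held 0.936% to 1.26% in Sham rats, 0.635% to 1.05% in MI rats and 0.426% to 0.707% in treated rats. Mitochondrial genes held 22.8% to 28.9% of the counts in Sham and 7.14% to 14.2% in the other groups. Levels are given as CPM, read counts relative to the library size after scaling by edgeR's TMM method, and the levels of different chains are ranked only as CPM per kilobase of the listed gene length. Ratios of chains are ratios of read counts and marker lists are sums of CPM, both without division by length. A count of 3, the limit that a count of 0 allows, was worth 0.175 to 0.213 CPM before the TMM scaling. Cardiomyocyte markers fit the tissue label, with a summed level of 52731 to 57950 CPM in Sham rats.

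Of the 43 collagen chain genes, 29 had enough counts to be tested with edgeR's quasi-likelihood test, with Benjamini-Hochberg adjustment over 15101 genes. The other 14 had 4 to 90 counts over all 12 rats. They were Col22a1, Col9a2, Col11a1, Col9a3, Col6a5, Col25a1, Col6a4, Col28a1, Col9a1, Col19a1, Col23a1, Col26a1, Col10a1 and Col2a1, which include the cartilage chains of types II, IX and X and Col11a1 of type XI. The table also lists Nt5dc1 over the position of Col10a1 on the other strand, and whether the counting used strand is not given in the sources used here.

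**Figure D1:**
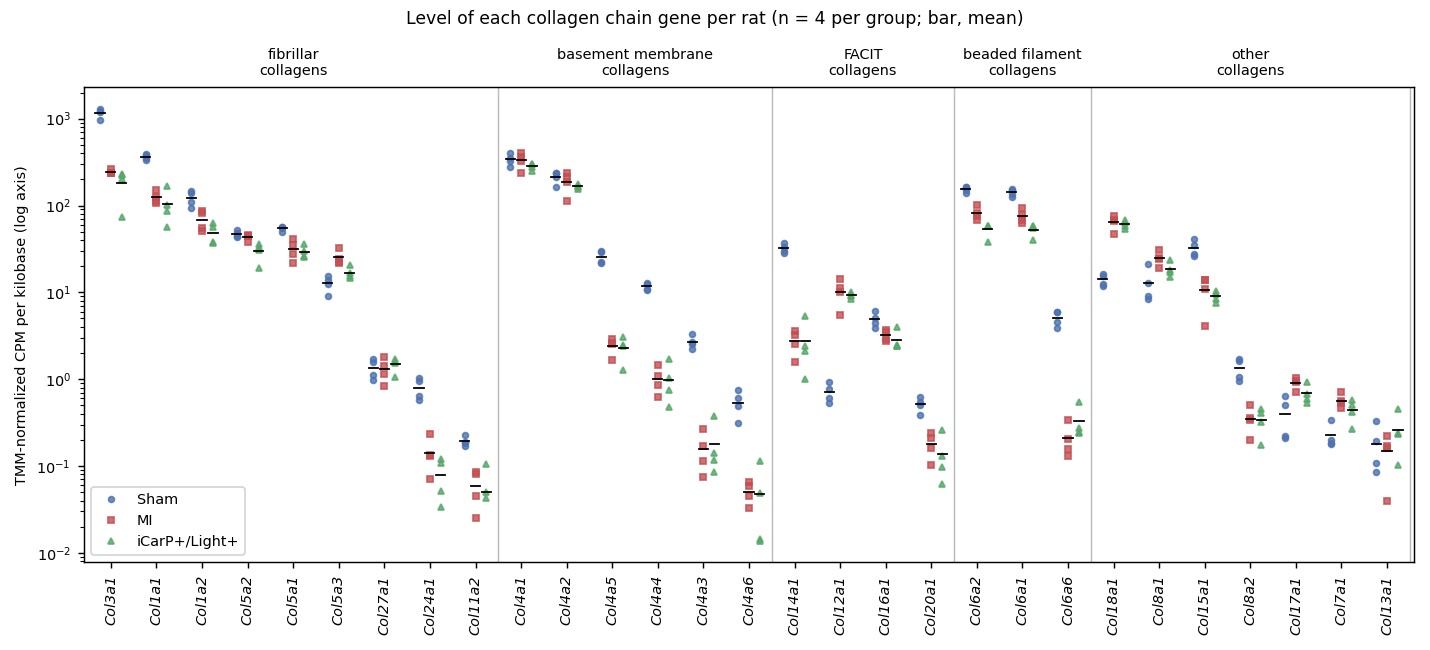
TMM-normalized CPM per kilobase (log axis) of the 29 tested collagen chain genes in each of the 12 rats, ordered by mean level within 5 classes. Circles are Sham, squares MI and triangles iCarP+/Light+ rats, bars are means, and the 1 value of 0 (Col11a2 in iCarP+/Light+ rat 5) has no symbol on the log axis. Col4a3, Col4a4, Col4a5 and Col4a6 lie far below Sham in both ligated groups while Col4a1 and Col4a2 overlap between the 3 groups.

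The first comparison, MI against Sham, asks which collagen chains changed in the infarct region within 1 day. Of the 29 tested chains, 24 changed in the edgeR test (adjusted p below 0.05), with 6 higher and 18 lower in MI. With libraries scaled by their totals alone, the split was 7 higher and 12 lower, and the falls of Col6a1, Col6a2, Col1a2, Col5a1, Col16a1 and Col11a2 given below did not pass (adjusted p = 0.101 to 0.903). Among all 15101 genes tested, 63.8% passed, 30.2% higher and 33.6% lower. The median log2 fold change was -0.91 over the 29 chains and -0.06 over all genes tested. The 4 MI rats did not overlap the 4 Sham rats for 5 chains that were higher and 18 that were lower, against 27.6% and 31.4% of all genes (59% in all). In bulk tissue, fewer cells of a type and less RNA per cell cannot be told apart.

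Fibrillar collagens were mostly lower in MI. Of 9 tested chains, 6 fell, 1 rose and 2 did not pass, with a median log2 fold change of -0.83. Col3a1, the chain of type III collagen, had the highest level per kilobase of all collagen chains in Sham, 1165 CPM per kilobase. It stood at 5647, 5780, 4624 and 6148 CPM in Sham rats 1, 2, 3 and 5 and at 1133, 1266, 1140 and 1127 CPM in MI rats 1, 3, 4 and 5. Every MI rat lay below every Sham rat, and the fall was 4.76-fold (log2 fold change -2.25, SE 0.29, adjusted p = 1.61e-05, edgeR).

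Both chains of type I collagen, the main collagen of tendon, bone and scar, fell less. Col1a1 was at 2245, 2264, 1936 and 2045 CPM in the Sham rats and at 619, 735, 655 and 882 CPM in the MI rats. The groups were apart, with a log2 fold change of -1.55 (SE 0.26, edgeR adjusted p = 0.000189). Col1a2 was at 496, 618, 417 and 651 CPM in Sham and at 364, 228, 246 and 385 CPM in MI. The highest MI rat was just below the lowest Sham rat, and the log2 fold change was -0.83 (SE 0.23, edgeR adjusted p = 0.0065). The table also holds a copy of Col1a2, NEWGENE_621351, with 24 counts over all rats. How reads that match both were counted is not given in the sources used here, so the counts of Col1a2 are uncertain.

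The 3 chains of type V collagen, which is buried in type I fibrils and sets their diameter, moved differently. Col5a1 fell (log2 fold change -0.80, SE 0.18, edgeR adjusted p = 0.0015), from 324 to 370 CPM in Sham to 143 to 267 CPM in MI. Col5a2 was at 193 to 235 CPM in Sham and 169 to 203 CPM in MI (log2 fold change -0.14, SE 0.17, edgeR adjusted p = 0.494), and the groups overlapped. Col5a3, a chain with restricted expression that the study names as a fibrosis gene from these samples, was at 84.7, 75.2, 55 and 93.4 CPM in Sham rats and at 148, 130, 136 and 196 CPM in MI rats. It was the fibrillar chain that rose, 1.98-fold and with no overlap (log2 fold change 0.98, SE 0.18, edgeR adjusted p = 0.000374). How the study came to name it is not given in the sources used here, and its rise is not taken as independent evidence of a direction.

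The remaining fibrillar chains had low levels. Col24a1 fell from 2.35 to 4.2 CPM in Sham to 0.287 to 0.951 CPM in MI (log2 fold change -2.49, SE 0.42, edgeR adjusted p = 0.000181). Col11a2 fell from 1.06 to 1.43 CPM to 0.16 to 0.539 CPM (log2 fold change -1.69, SE 0.58, edgeR adjusted p = 0.0221), on 3 to 10 counts per MI rat. Its call was lost without MI rat 1, MI rat 5 or Sham rat 2, with adjusted p-values of 0.0592, 0.0639 and 0.0523. Col27a1 was at 7.5 CPM ± 1.95 (SD, n = 4) in Sham and 7.3 CPM ± 2.32 (SD, n = 4) in MI, a log2 difference of -0.04 (SE 0.26).

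Markers of fibroblasts are given beside the fibrillar chains, where 33.6% of all genes were lower in MI. Of the 10 markers, 8 fell in MI and none was at 0, and their summed level was 3757 to 4758 CPM in Sham rats, 897 to 1101 CPM in MI rats and 707 to 1245 CPM in treated rats. Pdgfra, a receptor that marks fibroblasts, was at 150 CPM ± 20.7 (SD, n = 4) in Sham and 126 CPM ± 23.1 (SD, n = 4) in MI and did not pass the test (edgeR adjusted p = 0.198). The part of these cells in the levels of the fibrillar chains was not tested.

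**Figure D2:**
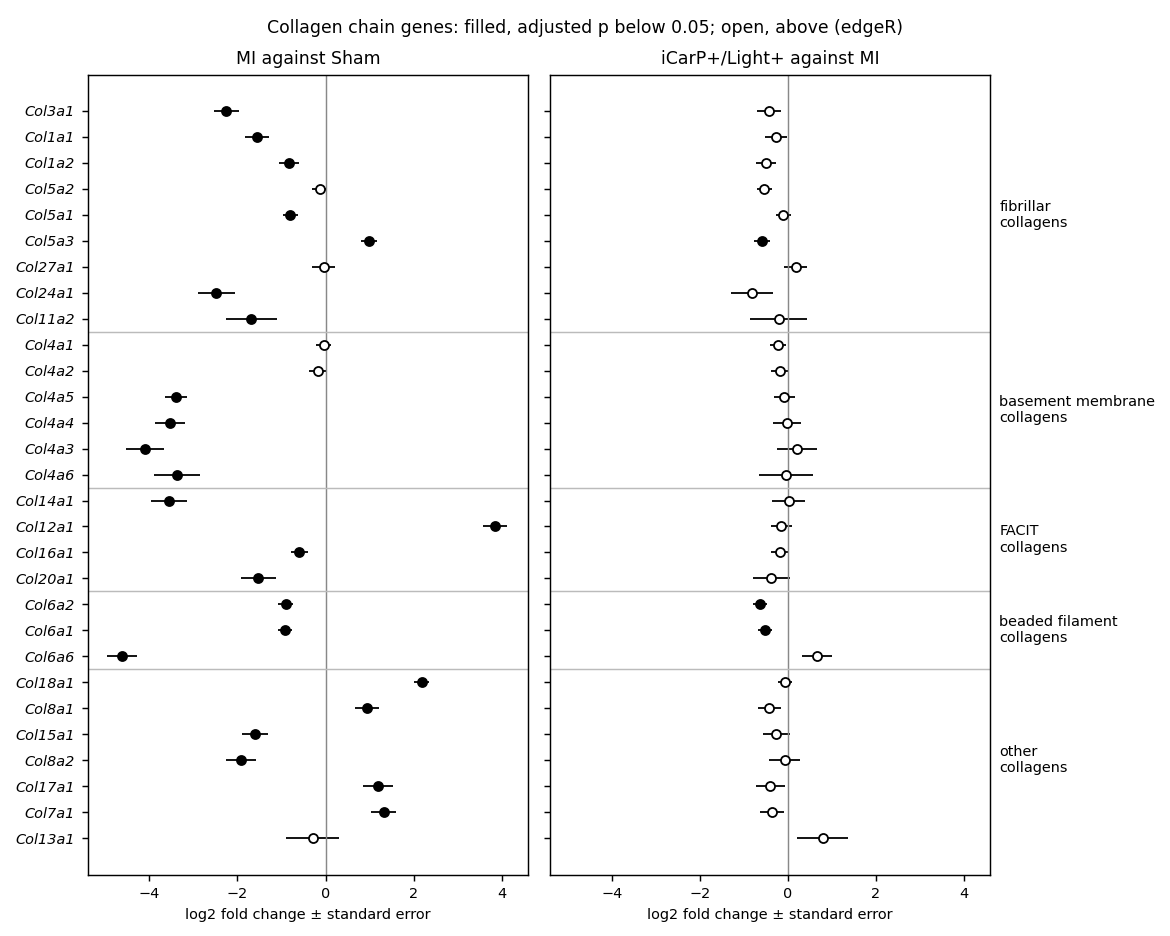
Log2 fold change ± standard error of the 29 tested collagen chain genes in MI against Sham (left) and in iCarP+/Light+ against MI (right), grouped by class. Filled circles have an edgeR adjusted p below 0.05. In MI, 24 chains changed, from -4.62 (Col6a6) to 3.85 (Col12a1), whereas in iCarP+/Light+ rats 3 chains differed from MI, all of them lower.

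Type IV collagen split into a pair of chains near the Sham level and 4 chains far below it. In the mammalian genome its 6 genes lie in pairs that start back to back and are read in opposite directions. In the RefSeq annotation of GRCr8, the starts of Col4a1 and Col4a2 lie 76 bases apart, those of Col4a3 and Col4a4 412 bases and those of Col4a5 and Col4a6 1414 bases. The sequence between Col4a1 and Col4a2 is shown because both genes start from it, and the stretch of 250 bases before the start of Col4a3 because that chain had the largest fall of type IV collagen. Capitals mark the letters GGGCGG or CCAAT on either strand (CCGCCC or ATTGG when read in reverse).
Col4a1 to Col4a2, chr16:84885521-84885596, GRCr8, + strand: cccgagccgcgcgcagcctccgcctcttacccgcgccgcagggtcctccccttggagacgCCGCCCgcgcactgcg
Col4a3, chr9:91323740-91323989, GRCr8, + strand: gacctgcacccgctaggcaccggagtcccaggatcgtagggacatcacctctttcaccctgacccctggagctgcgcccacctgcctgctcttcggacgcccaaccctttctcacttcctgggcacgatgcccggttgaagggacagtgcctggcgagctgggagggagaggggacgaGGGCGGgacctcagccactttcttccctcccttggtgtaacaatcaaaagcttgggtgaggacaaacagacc

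The stretch shared by Col4a1 and Col4a2 is 78.9% G or C and holds 1 match to GGGCGG. The stretch before Col4a3 is 62% G or C and also holds 1 match. In the table's own annotation of the rn6 build, the listed ends of Col4a1 (chromosome 16, 83522162 to 83632153) and Col4a2 (83387364 to 83438561) are 83600 bases apart.

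Col4a1 and Col4a2 encode the chains present in nearly all basement membranes. Col4a1 was at 2134, 2333, 1825 and 2655 CPM in Sham rats and at 2122, 2386, 1554 and 2650 CPM in MI rats, and the groups overlapped over most of their range. The log2 difference was -0.04 (SE 0.17, edgeR adjusted p = 0.858), and it turned to 0.55 (adjusted p = 0.0218) when libraries were scaled by their totals alone. Col4a2 was at 1052, 1172, 803 and 1168 CPM in Sham and at 920, 1045, 563 and 1177 CPM in MI (log2 difference -0.18, SE 0.20, edgeR adjusted p = 0.447), again with overlap. The scaling by totals alone moved the median of all genes from -0.06 to 0.52 in this comparison, and from 0.01 to -0.25 in iCarP+/Light+ against MI. Set against that all-gene median, the chains had a median of -0.85 in MI, which a change of scaling leaves nearly as it is by construction.

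The other 4 chains of type IV collagen, which are found in restricted basement membranes such as those of kidney, lung and smooth muscle, all fell. Col4a5 was at 187, 141, 143 and 194 CPM in Sham rats and at 10.7, 18.6, 17.1 and 16.7 CPM in MI rats. Its groups were far apart, with a fall of 10.6-fold (log2 fold change -3.40, SE 0.25, edgeR adjusted p = 2.59e-07). Its neighbour Col4a6 was low throughout, at 20 to 54 counts per Sham rat and 3 to 6 per MI rat (log2 fold change -3.37, SE 0.52, edgeR adjusted p = 9.28e-05). Col4a4 fell from 115 to 138 CPM to 6.82 to 16.1 CPM (log2 fold change -3.53, SE 0.34), and Col4a3 from 14.7 to 22.3 CPM to 0.503 to 1.76 CPM (log2 fold change -4.10, SE 0.44), with edgeR adjusted p-values of 1.68e-06 and 3.97e-06. The share of type IV collagen CPM per kilobase that came from Col4a1 and Col4a2 went from 93.1% ± 0.760 (SD, n = 4) in Sham to 99.3% ± 0.178 (SD, n = 4) in MI.

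Markers of cells that lie on basement membranes are given beside these chains, where 33.6% of all genes were lower and 30.2% higher in MI. Of 8 tested endothelial markers 7 fell, and the summed level of that list was 1711 to 1914 CPM in Sham rats, 827 to 1182 CPM in MI rats and 1011 to 1157 CPM in treated rats, with Cldn5 at 0 in every rat. Of 10 pericyte and smooth muscle markers 4 fell and 1 rose, with summed levels of 1258 to 1365, 514 to 931 and 488 to 684 CPM. Of 10 cardiomyocyte markers 9 fell and 1, the stress-induced peptide gene Nppa, rose, with summed levels of 52731 to 57950, 3734 to 7937 and 3760 to 9335 CPM. Their part in the levels of the type IV chains was not tested.

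FACIT collagens moved in opposite directions. Of 4 tested chains, 3 fell and 1 rose. Col12a1, a long chain that sits on the surface of type I fibrils, was at 6.36, 9.76, 8.12 and 5.68 CPM in Sham rats and at 106, 118, 58.2 and 150 CPM in MI rats. The lowest MI rat stood well above the highest Sham rat, and the rise, 14.4-fold, was the largest among the 29 chains (log2 fold change 3.85, SE 0.27, edgeR adjusted p = 1.57e-07).

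Col14a1, a chain of similar build that also binds fibrils, was at 154, 161, 179 and 197 CPM in Sham and at 13.7, 19.1, 8.39 and 17.3 CPM in MI. Its fall was 11.8-fold and without overlap (log2 fold change -3.56, SE 0.41, edgeR adjusted p = 7.11e-06). Col16a1 was at 26.2, 32.3, 20.5 and 23.3 CPM in Sham and at 14.6, 19.5, 18.4 and 15.1 CPM in MI. It was lower in every MI rat (log2 fold change -0.60, SE 0.19, edgeR adjusted p = 0.016), and its call was lost without Sham rat 2 (adjusted p = 0.0597). Col20a1 fell from 1.7 to 2.73 CPM to 0.447 to 1.02 CPM (log2 fold change -1.53, SE 0.40, edgeR adjusted p = 0.00459).

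The 3 tested chains of beaded filaments within the rule all fell in MI. Type VI collagen forms fine filaments around cells that tie them to the fibrils. Col6a2 was at 565, 606, 514 and 600 CPM in Sham and at 306, 253, 279 and 378 CPM in MI. Col6a1 was at 463, 482, 389 and 418 CPM in Sham and at 242, 209, 192 and 290 CPM in MI. Both were apart between the groups and had the same log2 fold change, -0.91 (SE 0.16 each, edgeR adjusted p = 0.000258 and 0.000238).

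Col6a6, an alternative partner of these chains, fell furthest of the 29. It was at 40.7, 40.8, 26 and 31.3 CPM in Sham and at 1.05, 1.4, 0.895 and 2.29 CPM in MI (log2 fold change -4.62, SE 0.34, edgeR adjusted p = 2.41e-07). No MI rat came near the lowest Sham rat. The locus AABR07068316.1, outside the rule as said, was at 296 to 362 CPM in Sham and 261 to 514 CPM in MI, a log2 difference of 0.08 (SE 0.19, edgeR adjusted p = 0.735).

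Among the other collagens 4 chains rose and 2 fell of the 7 tested. Col18a1, whose protein sits in basement membranes and releases the fragment endostatin, was at 59.8, 81.6, 63 and 77.9 CPM in Sham and at 330, 339, 233 and 376 CPM in MI. The groups were far apart, with a rise of 4.53-fold (log2 fold change 2.18, SE 0.16, edgeR adjusted p = 2.68e-07). Col15a1, its closest relative, moved the other way. It was at 182, 137, 214 and 144 CPM in Sham and at 57.1, 72.4, 21.4 and 72.3 CPM in MI (log2 fold change -1.60, SE 0.30, edgeR adjusted p = 0.00045), with no overlap. The table holds a near copy of it, LOC108348074, with 9700 counts over all rats and a log2 fold change of -1.36 (SE 0.24), so the counts of Col15a1 itself are uncertain.

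The sequence before the start of Col18a1 is shown beside the largest rise that has an entry in the RefSeq table, with the same capitals as for Col4a3. Its 250 bases are 60.4% G or C and hold 3 matches to GGGCGG on the reverse strand.
Col18a1, chr20:11473395-11473644, GRCr8, + strand: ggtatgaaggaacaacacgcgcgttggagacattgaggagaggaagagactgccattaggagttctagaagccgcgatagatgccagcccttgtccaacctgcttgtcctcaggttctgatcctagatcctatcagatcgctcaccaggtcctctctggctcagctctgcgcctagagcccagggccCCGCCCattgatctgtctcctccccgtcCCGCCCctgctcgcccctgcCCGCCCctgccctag

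Col8a1 and Col8a2, the chains of the short type VIII collagen of vessel walls, diverged. Col8a1 was at 35.8, 39.6, 54.8 and 92.9 CPM in Sham and at 106, 134, 81.8 and 107 CPM in MI. It rose in the test (log2 fold change 0.94, SE 0.27, edgeR adjusted p = 0.00768), although the lowest MI rat was below the highest Sham rat. Col8a2 fell from 3.98 to 7.17 CPM to 0.839 to 2.11 CPM (log2 fold change -1.92, SE 0.35, edgeR adjusted p = 0.000332).

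Col7a1, which forms the anchoring fibrils of skin, rose from 1.66 to 3.07 CPM to 4.26 to 6.51 CPM (log2 fold change 1.32, SE 0.29, edgeR adjusted p = 0.00134). The membrane collagen Col17a1 rose from 1.18 to 3.54 CPM to 3.94 to 5.69 CPM (log2 fold change 1.20, SE 0.34, edgeR adjusted p = 0.00794). Col13a1, another membrane collagen, was at 3 to 13 counts per Sham rat and 2 to 11 per MI rat, a log2 difference of -0.29 (SE 0.60). Leukocyte markers are given beside the chains that rose, where 30.2% of all genes were higher in MI. All 9 tested were higher in MI, with a summed level of 276 to 472 CPM in Sham rats, 4067 to 7217 CPM in MI rats and 6199 to 11075 CPM in treated rats, none of them at 0 in any group. Their part in these rises was not tested.

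The makeup of collagen transcripts was different in the ligated groups. Fibrillar chains made up 64.0% ± 0.470 (SD, n = 4) of the collagen CPM per kilobase in Sham rats, 40.7% ± 3.67 (SD, n = 4) in MI rats and 37.4% ± 6.72 (SD, n = 4) in treated rats. Type IV chains made up 21.4% ± 1.09, 38.7% ± 3.79 and 42.7% ± 5.22 in the same order. The ranges of Sham and MI did not overlap for either class, with 63.5% to 64.6% against 37.8% to 46.1% for fibrillar chains and 20.2% to 22.8% against 33.2% to 41.5% for type IV chains.

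Beaded filament chains held 11.0% ± 0.608 in Sham and 11.9% ± 1.43 in MI, FACIT chains 1.42% ± 0.169 and 1.22% ± 0.155 (without division by gene length 1.51% and 1.96%, the opposite direction), and other collagens 2.27% ± 0.451 and 7.55% ± 0.656 (SD, n = 4 each). Col1a1, Col1a2 and Col3a1 alone went from 59.7% to 33.1% and Col4a1 and Col4a2 from 19.9% to 38.4%. The summed level of all collagen chain genes was 2764 CPM per kilobase ± 290 (SD, n = 4) in Sham rats, 1337 ± 211 in MI rats and 1076 ± 186 in treated rats, so the larger share of Col4a1 and Col4a2 stood beside lower levels of the fibrillar chains. These shares are a description that leaves out AABR07068316.1, and no test was run on them.

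**Figure D3:**
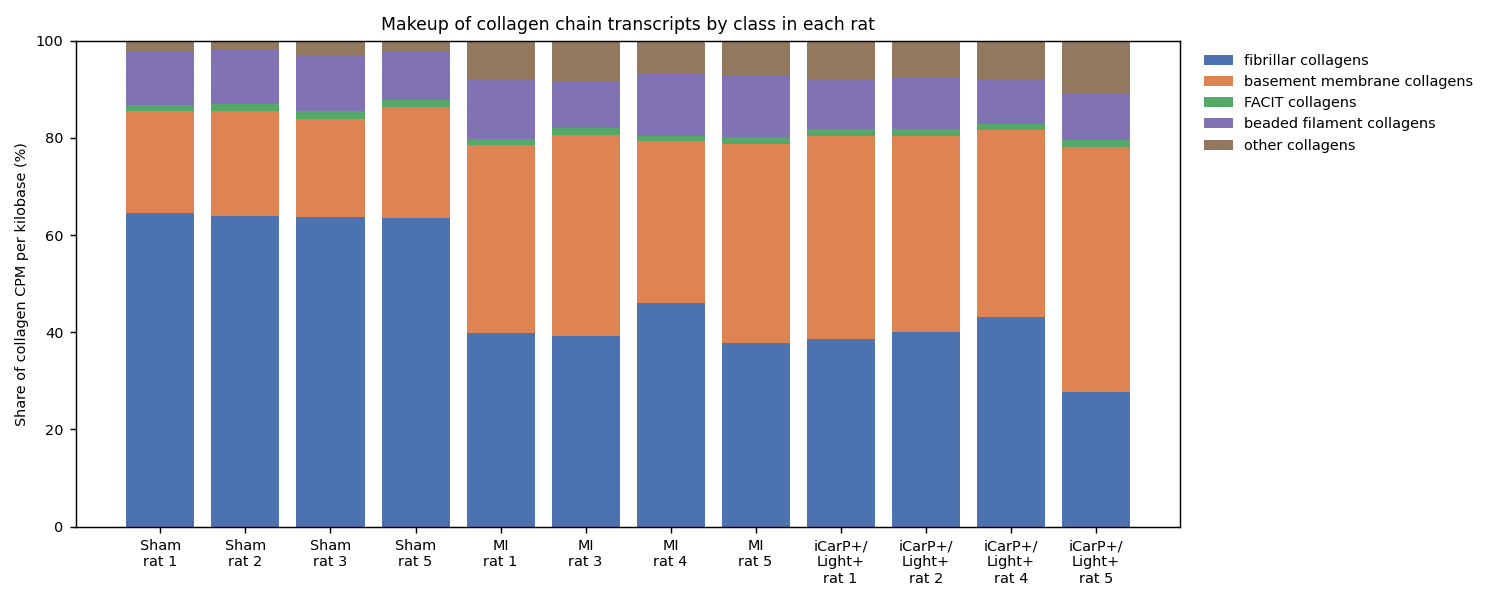
Share of each collagen class in the summed CPM per kilobase of the collagen chain genes (%), with 1 stacked bar per rat. Fibrillar chains hold 63.5% to 64.6% in the 4 Sham rats, 37.8% to 46.1% in the 4 MI rats and 27.7% to 43.2% in the 4 iCarP+/Light+ rats, where rat 5 is the lowest.

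Ratios of chains that share a molecule or a fibril were taken within each rat, which makes them independent of library scaling. There were 9 pairs and 3 comparisons, and the two-sided exact permutation test of 4 rats against 4 cannot go below p = 0.0286. That smallest p became 0.0857 after Benjamini-Hochberg adjustment over the 27 tests, so no ratio passed 0.05, and the values are given for their size and overlap.

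In MI against Sham, 5 ratios had no overlap between the groups, each at the smallest exact permutation p of 0.0286. Col8a1 outnumbered Col8a2 by 5.50 to 23.1 reads to 1 in Sham rats and by 49.9 to 94.4 to 1 in MI rats, a log2 difference of 2.96. Col5a3 to Col5a1 went from 0.170 to 0.254 in Sham to 0.569 to 0.951 in MI, a log2 difference of 1.83. Col5a1 to Col5a2 was 1.58 to 1.81 in Sham and 0.843 to 1.31 in MI.

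The ratio of Col1a1 to Col3a1 was 0.333 to 0.419 in Sham and 0.546 to 0.782 in MI. Col4a3 to Col4a4 was 0.128 to 0.163 in Sham and 0.0776 to 0.111 in MI. The other 4 ratios overlapped between MI and Sham. Col4a1 to Col4a2 was at 1.99 to 2.27 in Sham and 2.25 to 2.76 in MI, and Col6a1 to Col6a2 was at 0.696 to 0.820 and 0.686 to 0.826. The exact permutation p was 0.114 and 0.971 for these. Col1a1 to Col1a2 was 3.14 to 4.64 in Sham and 1.70 to 3.22 in MI (exact permutation p = 0.0571), and Col4a5 to Col4a6 was 37.8 to 92.0 and 34.5 to 98.4 (exact permutation p = 0.714).

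**Figure D4:**
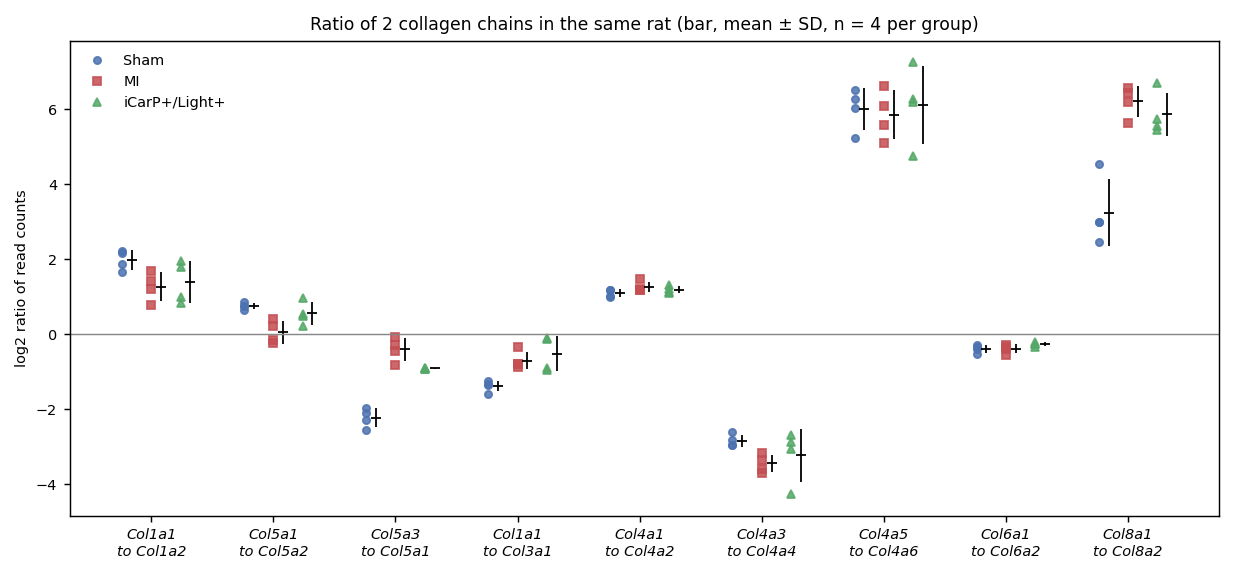
Log2 ratio of the read counts of 2 collagen chains in the same rat for 9 pairs, with 1 point per rat and the mean ± SD (n = 4 per group) beside them. Col8a1 to Col8a2 and Col5a3 to Col5a1 are higher in every MI rat than in every Sham rat, whereas Col4a1 to Col4a2 and Col6a1 to Col6a2 overlap.

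The second comparison, iCarP+/Light+ against MI, asks what the treatment changed in the infarct region. It shares the MI rats with the first. Of the 29 chains, 3 were lower in iCarP+/Light+ rats in the edgeR test and none was higher, while 2.01% of all genes tested passed as lower and 11.6% as higher (13.6% in all). At an unadjusted p below 0.05 there were 4 chains, all lower, and DESeq2 and limma-voom gave 4 lower and none higher each. The median log2 difference was -0.21 over the 29 chains and 0.01 over all genes. All 4 treated rats lay below all 4 MI rats for 5 chains, and none was apart in the other direction, against 4.37% and 12.1% of all genes (16.4% in all).

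Col6a1 and Col6a2 of type VI collagen were lower with treatment. Col6a2 was at 216, 214, 215 and 142 CPM in iCarP+/Light+ rats 1, 2, 4 and 5, below the 253 to 378 CPM of the MI rats (log2 fold change -0.63, SE 0.16, edgeR adjusted p = 0.0179). Col6a1 was at 171, 180, 178 and 122 CPM, below 192 to 290 CPM in MI (log2 fold change -0.52, SE 0.16, edgeR adjusted p = 0.0463). Rat 5 was the lowest for both, and the other 3 rats were close together. The locus AABR07068316.1, described as the alpha 3 chain of type VI collagen, was also lower. It was at 173 to 241 CPM against 261 to 514 CPM (log2 fold change -0.74, SE 0.19, edgeR adjusted p = 0.0203).

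Col5a3 was at 92.5, 101, 125 and 87.6 CPM, lower than in every MI rat, and 2 of the 4 treated rats were within the 55 to 93.4 CPM of Sham. Its log2 fold change against MI was -0.59 (SE 0.18, edgeR adjusted p = 0.0467), and against Sham it was 0.40 (SE 0.18, adjusted p = 0.0682). It passed as higher than Sham with library totals alone (log2 fold change 0.71, edgeR adjusted p = 0.00615), and in DESeq2 (adjusted p = 0.0499993) and without MI rat 5, treated rat 5 or Sham rat 5 (edgeR adjusted p = 0.0372 to 0.0458). It also had the ratio that was apart between treated and MI rats, Col5a3 to Col5a1, at 0.525 to 0.537 in the treated rats and 0.569 to 0.951 in MI (exact permutation p = 0.0286, adjusted over 27 tests 0.0857).

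These 3 calls lay near the threshold. The call of Col6a2 was lost without MI rat 5 (adjusted p = 0.0536). Col6a1 lost its call when any 1 of 11 rats was left out (adjusted p = 0.0538 to 0.124) and kept it without MI rat 4 (0.0264). It was also lost with genes of at least 1 count kept (0.0541) and with a fit of the compared groups alone (0.0723). Col5a3 lost it without MI rats 1 or 5, treated rats 1, 2 or 5 or Sham rats 1 or 2 (adjusted p = 0.0596 to 0.125). Without MI rat 5 no chain passed, and only 1 passed without MI rat 1, treated rat 2, Sham rat 1 or Sham rat 2. With the replicate number as a block in the fit, no chain passed either. The edgeR adjusted p was then 0.0524 for Col6a2, 0.0871 for Col6a1 and 0.0572 for Col5a3. Direction was the same in each of these.

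A pair of chains had no overlap but did not pass. Col5a2 was at 148, 138, 160 and 84.4 CPM in treated rats and 169 to 203 CPM in MI (log2 difference -0.54, SE 0.17, edgeR adjusted p = 0.0505). It passed without MI rat 4 or treated rats 1, 4 or 5, with adjusted p-values of 0.0289 to 0.0466, and under 6 of 10 other settings, among them DESeq2 (0.00832), limma-voom (0.0382) and library totals alone (0.012). Col3a1 was at 972, 1104, 1066 and 350 CPM in treated rats and 1127 to 1266 CPM in MI (log2 difference -0.42, SE 0.27, edgeR adjusted p = 0.382). Treated rat 5 was far below the others, and without it the log2 difference was -0.23.

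The rest of the chains overlapped between treated and MI rats. Col1a1 was at 504, 586, 984 and 327 CPM in treated rats, on both sides of the 619 to 882 CPM in MI (log2 difference -0.27, SE 0.26), and Col1a2 at 283, 169, 252 and 164 CPM (-0.50, SE 0.23, edgeR adjusted p = 0.197). Col4a1 was at 1971, 1827, 2003 and 1655 CPM (-0.22, SE 0.17), Col4a2 at 798, 834, 872 and 775 CPM (-0.18, SE 0.20) and Col4a5 at 15.9, 19.8, 15.4 and 8.16 CPM (-0.08, SE 0.24). None of these differences passed the test.

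Among the other chains given per rat, the FACIT chains, Col18a1 and Col15a1 did not pass either. Col12a1 was at 106, 96.7, 99.2 and 88.5 CPM in treated rats (log2 difference -0.15, SE 0.23) and Col18a1 at 267, 293, 344 and 311 CPM (-0.07, SE 0.16). Col14a1 was at 13.1, 29.1, 11.4 and 5.42 CPM (0.02, SE 0.38), Col16a1 at 12.8, 13, 21.1 and 12.6 CPM (-0.18, SE 0.20) and Col15a1 at 43.3, 39.5, 54.1 and 49.9 CPM (-0.26, SE 0.30). Each of these overlapped MI.

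Col8a1 was at 102, 79, 74.9 and 64.8 CPM (log2 difference from MI -0.42, SE 0.27) and Col6a6 at 1.88, 3.75, 1.69 and 1.62 CPM (0.67, SE 0.34, edgeR adjusted p = 0.243), also with overlap. The log2 differences of the other 12 chains lay between -0.82 (Col24a1) and 0.79 (Col13a1), on few reads for both, and none passed. Of 9 leukocyte markers 5 were higher and 1 lower in treated rats, where 11.6% of all genes were higher and 2.01% lower. Of the 10 fibroblast markers 1 was higher (Dcn) and 1 lower (Pi16). The part of these cells in the lower Col6a1, Col6a2 and Col5a3 was not tested.

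Against Sham, treated rats had 3 chains higher and 19 lower of 29, where 33.5% and 33% of all genes passed (66.5% in all). Scaled by totals alone, it was 6 higher and 17 lower, and the falls of Col5a2 (log2 difference -0.35, adjusted p = 0.116) and Col16a1 (adjusted p = 0.0639) did not pass, while Col5a3, Col8a1 and Col17a1 passed as higher. This comparison shares its rats with the other two. Col12a1, Col18a1 and Col7a1 were higher, with log2 fold changes of 3.70, 2.11 and 0.95. The call of Col7a1 was lost with the replicate number as a block in the fit (edgeR adjusted p = 0.0622). Col5a2, which did not pass between MI and Sham, was lower (log2 fold change -0.68, SE 0.17, edgeR adjusted p = 0.00313). Col4a1 and Col4a2 differed from Sham by -0.26 (SE 0.17) and -0.36 (SE 0.20) on the log2 scale and did not pass. Col4a3, Col4a4, Col4a5 and Col4a6 were lower by -3.89, -3.55, -3.48 and -3.41, close to their values in MI. The groups were apart for 2 chains higher and 18 lower, against 31.9% and 31.6% of all genes (63.5% in all).

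Genes that make and handle collagen were read in 4 lists, against 30.2% of all genes higher and 33.6% lower in MI and 11.6% higher and 2.01% lower with treatment. Of 17 genes for modification and folding in the endoplasmic reticulum, all tested, 10 rose and 2 fell in MI, and 2 rose further with treatment. Of 12 genes for procollagen processing and cross-linking, 3 rose and 3 fell in MI, and with treatment 2 were higher and 1 lower. Of 8 tested collagen receptors, 1 rose and 4 fell in MI, and 2 were higher with treatment. Of 7 small leucine-rich proteoglycans that coat fibrils, 4 fell in MI and 1 was higher with treatment.

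P4hb and P4ha1, subunits of the prolyl hydroxylase that stabilizes the helix, were the 2 that rose in both comparisons. P4hb was at 455 to 529 CPM in Sham rats, 816 to 1061 CPM in MI rats and 1458 to 2415 CPM in treated rats, with log2 fold changes of 0.97 (SE 0.16) and then 1.07 (SE 0.16, edgeR adjusted p = 0.000486). P4ha1 was at 47.4 to 57.5, 95.7 to 173 and 224 to 511 CPM, with log2 fold changes of 1.35 (SE 0.25) and then 1.57 (SE 0.25, edgeR adjusted p = 0.000872). The 3 groups did not overlap for either gene. Serpinh1, the collagen chaperone, was at 565, 699 and 709 CPM on average and did not pass in MI (log2 difference 0.31, edgeR adjusted p = 0.0836).

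Lox, which cross-links fibrils, was at 40.5 to 54.4 CPM in Sham rats, 117 to 259 CPM in MI rats and 258 to 326 CPM in treated rats (log2 fold change in MI 1.99, SE 0.21, edgeR adjusted p = 2.87e-06, and 0.60 with treatment, adjusted p = 0.0653). Its relative Loxl1 was at 107 CPM ± 12.6 (SD, n = 4) in Sham and 119 CPM ± 13.2 (SD, n = 4) in MI and did not pass. With treatment the procollagen proteinase genes Tll1 and Adamts3 were higher by 1.21 and 1.46 and Pcolce, an enhancer of procollagen trimming, was lower by -0.52 on the log2 scale (edgeR adjusted p = 0.000926, 0.0157 and 0.0396).

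Among receptors, Itgb1, the shared subunit of the collagen integrins, rose from 710 to 1095 CPM on average in MI (log2 fold change 0.63, SE 0.11), and Mrc2, which takes up collagen, fell (-0.84, SE 0.16). Itga2 and Gp6, collagen receptors of platelets among other cells, were higher in treated than in MI rats by 1.50 and 1.86 on the log2 scale (edgeR adjusted p = 0.0282 and 0.039), with Gp6 at 0.774 to 2.24 CPM in the treated rats. The proteoglycan Dcn was at 889 to 1213 CPM in Sham rats, 170 to 322 CPM in MI rats and 298 to 470 CPM in treated rats, a fall of 2.28 and then a rise of 0.73 on the log2 scale (edgeR adjusted p = 1.72e-06 and 0.0374). Bgn was at 349, 376 and 308 CPM on average and did not pass in either comparison. Dcn, Lum and Ogn are in both the proteoglycan and the fibroblast list.

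**Figure D5:**
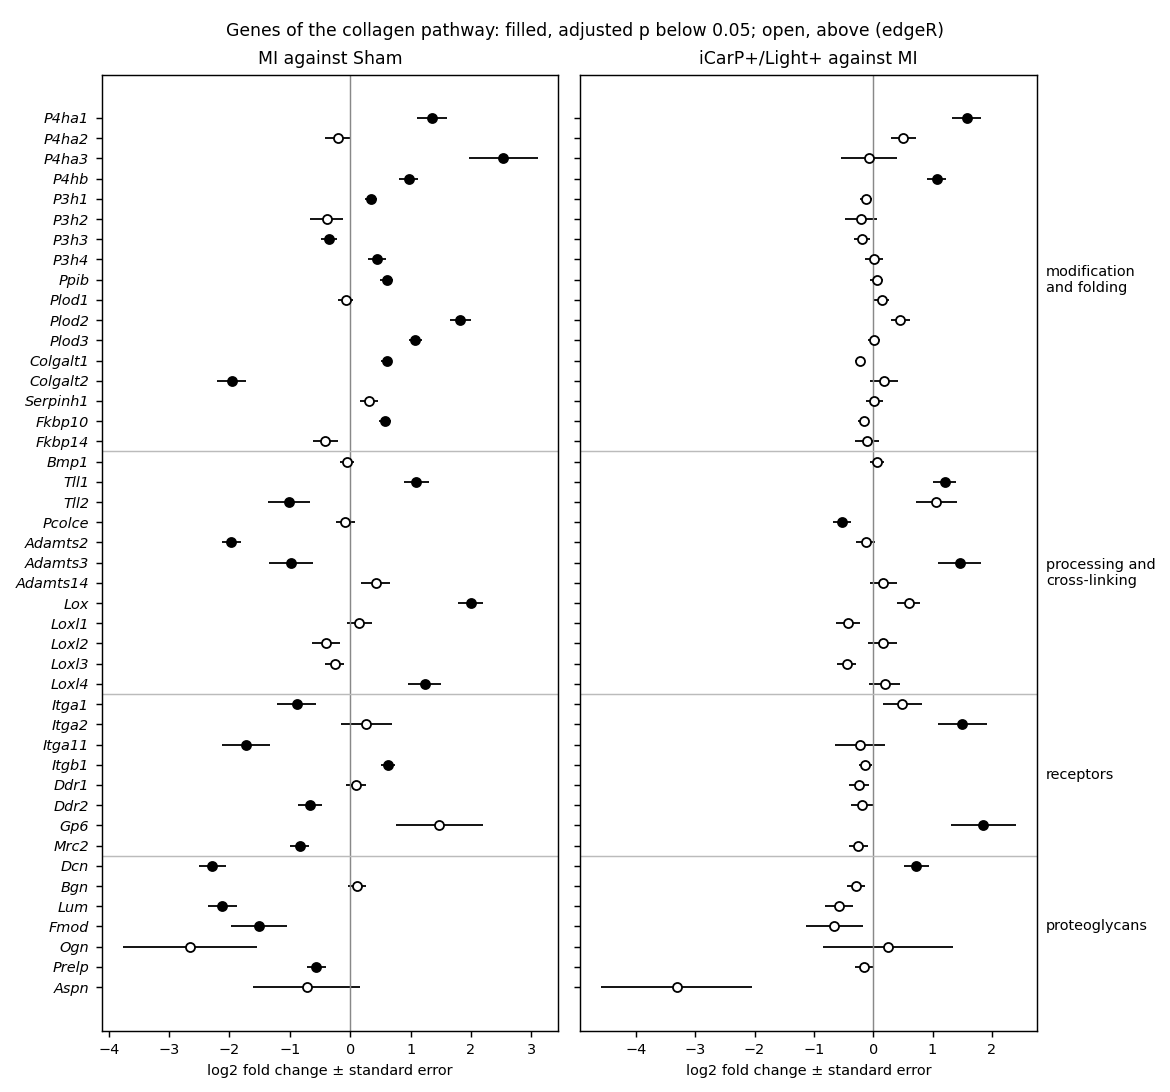
Log2 fold change ± standard error of 44 tested genes that modify, process, bind or receive collagen, in MI against Sham (left) and in iCarP+/Light+ against MI (right), grouped into 4 lists. Filled circles have an edgeR adjusted p below 0.05. P4ha1 and P4hb are higher in both comparisons, and Dcn is lower in MI and higher with treatment.

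Of the 43 collagen chain genes, 34 had an entry in the RefSeq promoter table of GRCr8, and the 250 bases before each start were searched on both strands. GGGCGG was found before 19 of the 34 (55.9%) and in 30.5% of all 33469 stretches in the table. CCAAT was found before 11 of the 34 (32.4%) and in 34.0% of all. Each collagen gene was counted once, whereas the full set was not reduced to 1 stretch per gene, so the sets are not alike. The AP-1 letters TGANTCA were found before 1 collagen gene, Col6a1, and in 6.34% of all stretches, and ACGTG, the core of the hypoxia response element, before Col4a5 and Col26a1 and in 16.6% of all. The stretch before Col5a3 is shown as the chain that rose in MI and was lower with treatment. It holds 3 matches to GGGCGG and 1 to CCAAT, in capitals.
Col5a3, chr8:27625949-27626198, GRCr8, - strand: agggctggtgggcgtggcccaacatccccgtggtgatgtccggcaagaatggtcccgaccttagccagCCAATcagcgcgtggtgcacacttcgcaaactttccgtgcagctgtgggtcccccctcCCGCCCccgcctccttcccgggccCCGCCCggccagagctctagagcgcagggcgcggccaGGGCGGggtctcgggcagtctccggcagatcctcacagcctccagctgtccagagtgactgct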

How the data were processed

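RNA-seq reads were counted per gene by the authors, and the deposited table holds these raw counts for 12 rats, without normalization. The submitters' processing notes name HISAT2, featureCounts and the rn6 build, while versions and the strand setting are not given in the sources used here. Replicates were separate rats. Within a group, no 2 rats held copies of one library. The tests were run in R 4.3.3 using edgeR 4.0.16 (filterByExpr with minimum count 10, TMM, quasi-likelihood fit with 1 mean per group over all 12 rats, Benjamini-Hochberg adjustment over 15101 genes, threshold 0.05). SE was derived from the F statistic. The method was also run on simulated counts in which a small part of the genes changed. That run cannot check the scaling in these data, where 63.8% of genes passed in MI against Sham.

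Total counts were 14064400 to 17137000 per rat. Floors of 3 counts cover counting error only, since reads carried no molecular identifiers.

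Ratios were log2 of the counts of 2 chains with 0.5 added to both. They were compared by two-sided exact permutation tests (70 arrangements) in scipy 1.17.1 under Python 3.11.15. A ratio with AABR07068316.1 was not run, as that locus is no member. Plots were drawn with matplotlib 3.10.9.

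The members, the classes, the pathway lists and the marker lists were chosen with earlier results of these data known. Values per rat are given for the 3 chains of each class with the highest mean CPM, for Col5a3 and for chains called in iCarP+/Light+ against MI. In each pathway list, the 2 genes with the highest mean CPM and those called in that comparison are named. Alternatives were DESeq2's size factors, library totals alone, DESeq2 1.42.0, limma-voom (limma 3.58.1), filters of at least 1 count in all and of at least 10 counts in every rat, fits on protein-coding genes, without mitochondrial genes or on the compared groups alone, a replicate block, each rat left out, 1 count added in ratios, shares without gene length, and Col15a1 and Col18a1 counted with type IV collagen. Sequences are from RefSeq (GRCr8). Staining and function data were not analysed here.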

Additional observations from a re-analysis of the deposited data

Results flagged for a closer look

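Of 87 groups of 4 rats (29 chains in 3 groups), 8 held a rat whose gap to the nearest other rat took more of the group's range in log2 CPM than Dixon's critical share. Chance gives about 1 in 20 groups, here 4.35. In iCarP+/Light+ rat 5, 3 chains were low together. Col3a1 was at 350 CPM there against 972 to 1104 CPM in the other 3 treated rats (gap 0.890 of the range), Col6a2 at 142 against 214 to 216 CPM (0.975) and Col6a1 at 122 against 171 to 180 CPM (0.871). Without this rat, Col6a2 was lower than in MI by -0.58 on the log2 scale (edgeR adjusted p = 0.0229), and Col6a1 and Col5a3 by -0.48 and -0.60 (adjusted p = 0.0624 and 0.0842).

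Col16a1 was high in iCarP+/Light+ rat 4, at 21.1 CPM against 12.6 to 13 CPM (gap 0.939). In MI, Col3a1 was high in rat 3, at 1266 CPM against 1127 to 1140 CPM (0.900), and Col5a2 was low in rat 4, at 169 CPM against 198 to 203 CPM (0.857). In Sham, Col5a1 was low in rat 3, at 324 CPM against 363 to 370 CPM (0.857), and Col7a1 was high in rat 2, at 3.07 CPM against 1.66 to 1.82 CPM (0.853).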

How the results depend on the processing

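Low chains rest on few reads, and 4 rats per group limit every test. In iCarP+/Light+ against MI, where 3 chains were lower, the count was 5 with library totals alone, 4 with DESeq2, limma-voom, DESeq2's size factors, at least 10 counts in every rat or no mitochondrial genes, 2 with at least 1 count or only the groups compared, and 0 to 4 with 1 rat left out. In iCarP+/Light+ against Sham, where 3 chains were higher, it was 6 with library totals alone, 5 with DESeq2 and 3 to 5 with 1 rat left out, 5 without treated rat 5 or Sham rat 5. In MI against Sham, 6 were higher and 16 to 19 lower with 1 rat left out, and 7 higher and 12 lower with library totals alone, where Col6a1, Col6a2, Col1a2, Col5a1, Col16a1 and Col11a2 did not pass and Col4a1 turned from -0.04 to 0.55. For these changes the cause was not tested.

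Rats with the same replicate number are different animals, and the correlation of their deviations was -0.150 to 0.0654. With so few rats, these correlations cannot show whether the numbers stand for a shared day or batch. A replicate block gave 6 higher and 17 lower, 0 and 0, and 2 higher and 19 lower in the 3 comparisons. Under the block, Col6a2, Col6a1 and Col5a3 differed from MI by -0.72, -0.60 and -0.67 on the log2 scale (edgeR adjusted p = 0.0524, 0.0871 and 0.0572).

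Without division by gene length, fibrillar chains held 63.2% in Sham and 39.4% in MI, and type IV chains 25.6% in Sham and 43.9% in MI. In MI rats, type IV chains then held more than fibrillar chains, the opposite order to that with division. FACIT chains held 1.51% in Sham rats, 1.96% in MI rats and 2.25% in treated rats, and beaded filament chains 7.46%, 7.68% and 6.28% in Sham, MI and iCarP+/Light+ rats. With Col15a1 and Col18a1 among basement membrane collagens, the median of that class in MI against Sham was -2.48 instead of -3.38. Of 1044 values of single chains with 1 rat left out, 23 lost a call and 12 gained one, and of 847 under the other alternatives 15 lost a call, 14 gained one and 1 reversed. With 1 rat left out or 1 count added, the ratios whose groups were apart kept their direction, while those of Col1a1 to Col1a2, Col4a5 to Col4a6 and Col6a1 to Col6a2 changed sign in some cases. The median of type IV chains in iCarP+/Light+ against MI changed sign without MI rat 5 or treated rat 5, and no other class median did.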

Other observations

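Marker lists of other tissues near the LV wall were also summed. The 8 epicardial mesothelium markers reached 36.6 to 49.0 CPM in Sham, 11.1 to 20.8 CPM in MI and 13.1 to 24.3 CPM in iCarP+/Light+ rats, most of it from Wt1. The 8 cartilage markers reached 8.58 to 11.6, 3.54 to 5.82 and 4.17 to 5.89 CPM, with Cnmd at 0 in every rat. The 6 skeletal muscle markers found reached 2293 to 2690, 169 to 323 and 146 to 342 CPM, nearly all from Ckm, which heart muscle also expresses.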
